A study of Mus musculus with 12 samples.

Results

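Retinoids, the vitamin A compounds, reach a cell as retinol and act as retinoic acid. The genes described here are 9 genes of that path, *Rbp4*, *Stra6*, *Crabp1*, *Crabp2*, *Aldh1a1*, *Aldh1a2*, *Aldh1a3*, *Cyp26a1* and *Rarb*, chosen by name: every probe whose gene name on the array equalled one of them was read in all 4 groups. They are 9 of the 34836 gene names on the array. Each was read by 1 probe except *Rarb*, which had 3. The brightest reading of each of the 9 genes passed the filter on dim probes, as did 18945 gene names in all. *Crabp1*, *Aldh1a2* and *Aldh1a3* passed through their signal in ES cells alone. The second reading of *Rarb* passed through 1 group, and the third did not pass.

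The study asked whether mouse embryonic stem (ES) cells need *Sox7*, a transcription factor gene of primitive endoderm, to become extraembryonic endoderm-like (XEN-like) cells. Every cell carried Gata6GR, a fusion of Gata6 with the ligand-binding domain of the glucocorticoid receptor, which enters the nucleus when dexamethasone (Dex) is added. The 4 groups of 3 arrays each were *Sox7* (+/-) ES cells without Dex, *Sox7* (+/-) XEN-like cells with Dex, *Sox7* (-/-) ES cells without Dex and *Sox7* (-/-) XEN-like cells with Dex, all harvested at day 4 in medium with serum and LIF. The *Sox7* (-/-) line came from a heterozygous EB3 clone by selection in high-dose puromycin, so each genotype stands on 1 targeted lineage, and Dex-treated cells without Gata6GR were not analysed here. The effects of Dex itself and of Gata6GR therefore cannot be told apart, nor can the genotype and the clone.

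In the blood, retinol travels bound to Rbp4, and Stra6 is the membrane receptor that takes it from Rbp4 into cells. Inside the cell retinol is oxidised to retinaldehyde and then, by the Aldh1a enzymes, to retinoic acid. Crabp1 and Crabp2 bind retinoic acid in the cytoplasm, Cyp26a1 breaks it down, and the nuclear receptors, Rarb among them, bind DNA and switch genes on when it is present. Visceral endoderm, the extraembryonic layer around the early embryo, is known as a source of Rbp4, and *Cyp26a1* and *Rarb* are known to be induced by retinoic acid itself.

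*Sox7* lay between 218 and 229% of the array's 75th percentile on the 3 *Sox7* (+/-) ES arrays and between 490 and 688% on the *Sox7* (+/-) XEN-like arrays, and did not exceed background clearly on any *Sox7* (-/-) array. All signals below are given on this scale, as a percentage of the 75th percentile of the array's own signals. Of 6 extraembryonic endoderm markers, 4 rose with Dex in *Sox7* (+/-) cells and 5 in *Sox7* (-/-) cells, and 5 of 6 pluripotency markers fell in each. All 6 of the former, *Sox17* (966 to 1136% in *Sox7* (+/-) cells) and *Gata4* (1024 to 1133%) among them, were also well above background on all 6 ES arrays, so the cultures without Dex were not free of endoderm transcripts. *Gata6*, also 1 of the 6, was called in neither genotype (log2 0.27 and 0.37). Whether its probe also reads the Gata6GR transgene, which holds full-length *Gata6*, was not tested. Among the visceral endoderm markers, *Afp* and *Apoa1* were not well above background on any array. In whole cultures, fewer cells of a type and less RNA per cell cannot be told apart. The arrays lay on 2 slides. The slide that held the 3 *Sox7* (-/-) ES arrays held *Sox7* (-/-) XEN-like replicate 1 as well, and the other 8 arrays lay on the second slide.

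The third replicate of the *Sox7* (+/-) XEN-like cells stood apart, and several of the 9 genes turned on it. Its correlation with the other 2 replicates was 0.983 and 0.982, against 0.994 between those. Of 15906 genes well above background on all 3 arrays, 225 (1.41%) lay over 2-fold below both other replicates on replicate 3 and 426 (2.68%) over 2-fold above them, whereas for replicates 1 and 2 no such count exceeded 19. *Pou5f1*, a pluripotency marker, was at 177% on replicate 3 against 61.1 and 71.3%, *Ttr*, a visceral endoderm marker, at 128% against 229 and 259%, and *Cubn*, another, at 2006% against 872 and 1010%. The 5 pluripotency markers that fell with Dex summed to 474% on it against 351 and 339%, a difference that was mostly *Pou5f1*. *Zfp42* was at 275% against 261 and 245% and *Esrrb* at 16.8% against 18.6 and 15.4%. *Nanog* and *Sox2* were not well above background on any of the 3 arrays. *Pou5f1* also ran from 148 to 444% over the *Sox7* (-/-) XEN-like arrays. All 6 pluripotency markers summed to 4898% against 5577 and 5350%, most of it *Klf4*, which rose with Dex and was at 4423% against 5226 and 5010%. The summed extraembryonic endoderm markers were also lowest (16747% against 20108 and 20911%). What set this array apart was not tested. The results of the 9 genes that turned most on it are given with and without it.

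Promoter sequences, 250 bases before to 50 after a start site, were taken from RefSeq on build GRCm38.p6 and matched 7 of the 9 genes. They were searched on both strands for pairs of the retinoic acid receptor half-site (AGGTCA, or the forms spelled AGTTCA, then GGGTCA and lastly GGTTCA) in the same orientation with 5 or 2 bases between. The pair with a spacing of 5 was found in 32 of all 32851 promoters in the table (0.0974%), and among the 7 genes in *Cyp26a1* and *Rarb* only. The pair with a spacing of 2 was in 88 promoters (0.268%) and in none of these genes. The windows of *Cyp26a1* and *Rarb* are shown because they alone among the 7 genes held the pair with a spacing of 5, which capitals mark. Any part of the pair in the changes with Dex was not tested. In *Cyp26a1* (chr19:37697558-37697857, plus strand) it starts at position -32 from the start site and reads on the minus strand, and in *Rarb* (chr14:16575427-16575726, minus strand of the chromosome) it starts at position -53 on the gene's own strand.
Cyp26a1: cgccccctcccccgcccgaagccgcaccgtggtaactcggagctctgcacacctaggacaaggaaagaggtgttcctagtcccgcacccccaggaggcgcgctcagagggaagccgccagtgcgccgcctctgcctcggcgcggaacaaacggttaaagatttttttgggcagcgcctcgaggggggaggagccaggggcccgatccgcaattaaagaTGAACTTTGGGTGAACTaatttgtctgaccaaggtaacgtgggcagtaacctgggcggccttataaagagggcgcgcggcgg
Rarb: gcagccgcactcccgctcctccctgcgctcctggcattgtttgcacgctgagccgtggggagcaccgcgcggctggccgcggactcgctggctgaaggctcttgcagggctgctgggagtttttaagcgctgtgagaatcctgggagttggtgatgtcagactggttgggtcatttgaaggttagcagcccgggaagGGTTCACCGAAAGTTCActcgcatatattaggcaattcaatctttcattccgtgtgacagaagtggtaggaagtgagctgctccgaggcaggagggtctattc
A match of letters is not a measured binding site. Of the 31 genes with such a promoter, 10 were on the array and 3 passed the filter.

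**Figure D1:**
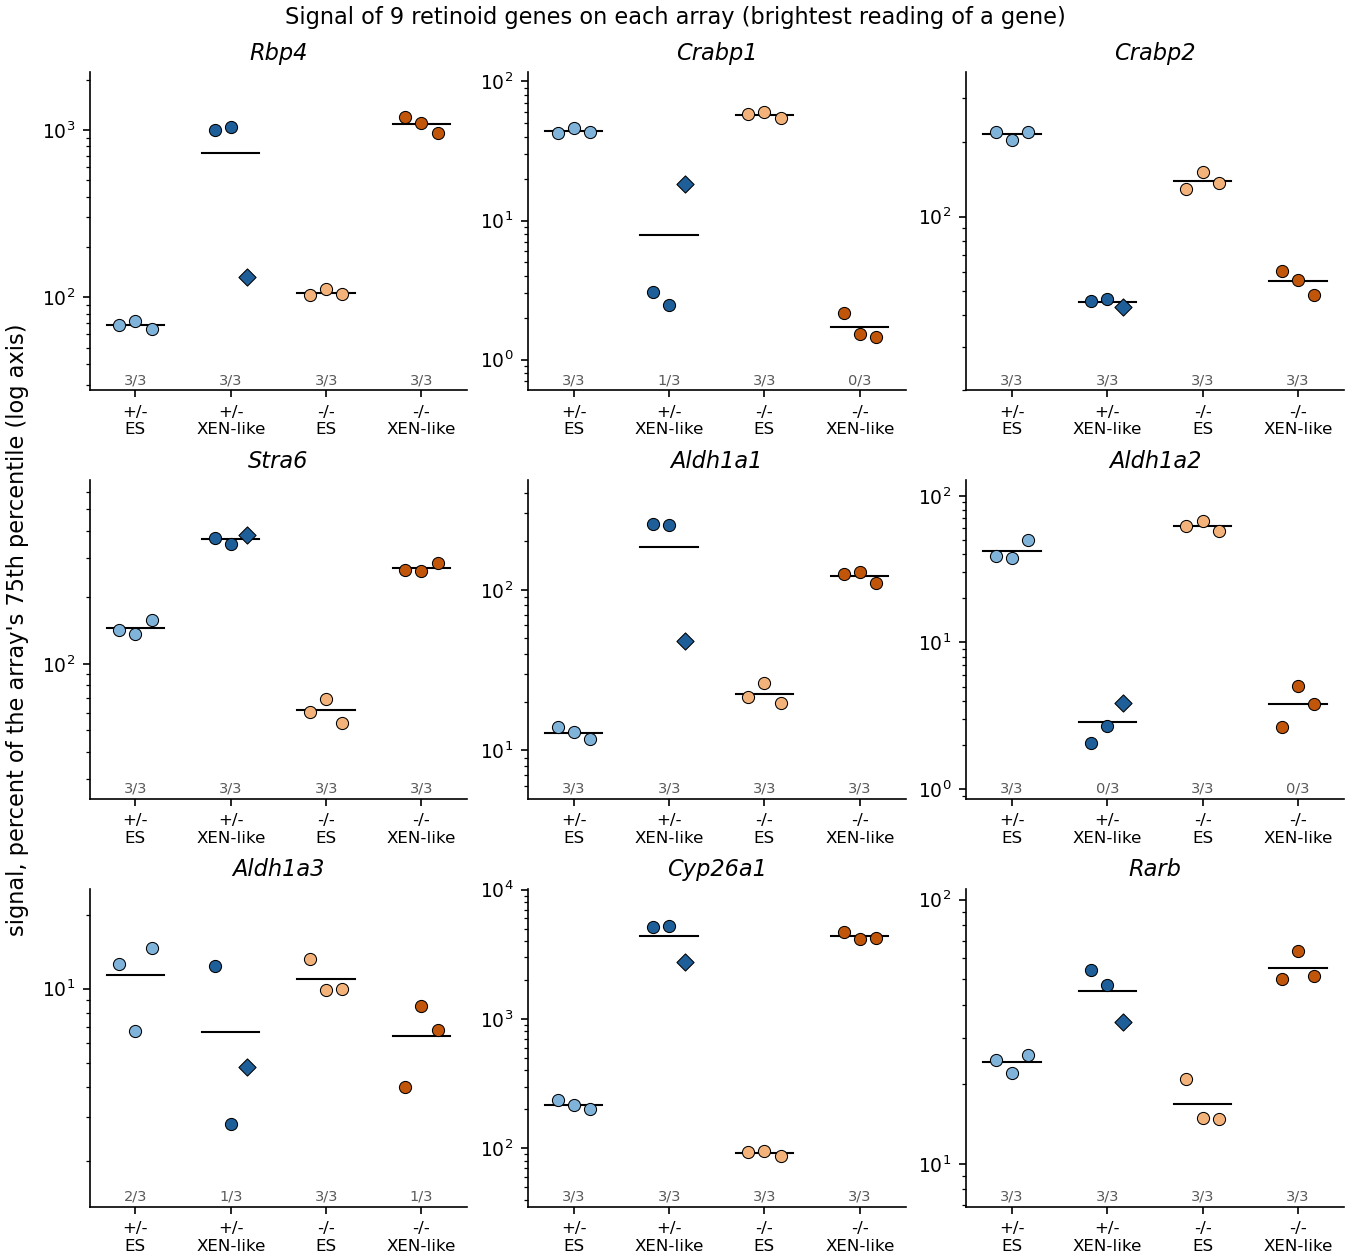
Signal of each of the 9 genes on each of the 12 arrays, as a percentage of the array's 75th percentile on a log axis that differs between panels. Points are arrays, lines are group means over 3 arrays, the diamond is *Sox7* (+/-) XEN-like replicate 3, and the fraction at the foot of each column is the number of arrays on which the probe was well above background. *Cyp26a1* ran from under 100% in *Sox7* (-/-) ES cells to 2745% or more on every XEN-like array, while *Crabp1* and *Aldh1a2* ran the other way.

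With Dex, transcripts of the retinol carrier and its receptor (*Rbp4*, *Stra6*), 1 synthesising enzyme (*Aldh1a1*) and the degrading enzyme (*Cyp26a1*) rose in both genotypes. Those of both binding proteins (*Crabp1*, *Crabp2*) and another synthesising enzyme (*Aldh1a2*) fell. Protein and retinoid levels were not measured on these arrays. In *Sox7* (+/-) cells 4 of the 9 genes rose, where 11.0% of all genes tested rose, and 3 fell, where 14.0% of all fell. In *Sox7* (-/-) cells 5 rose, *Rarb* being the fifth, against 14.5% of all genes, and 3 fell, against 14.1%. Of those that fell, *Crabp1* and *Aldh1a2* passed the filter through ES cells alone, which favours a fall. With signal required on all arrays, 4 rose and 1 fell in *Sox7* (+/-) cells, beside 1908 and 1268 of 19440 probes. In *Sox7* (-/-) cells 5 rose and 1 fell, beside 2529 and 1593 probes. A gene was called at an adjusted p under 0.05 by limma, corrected over all probes, with a change over 2-fold. The median log2 change of the 9 genes was 0.88 in *Sox7* (+/-) cells and 1.72 in *Sox7* (-/-) cells, beside 0.16 and 0.07 over all genes tested.

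*Rbp4*, the carrier of retinol in blood, was read at chromosome 19 (mm9 38191120 to 38191179, minus strand). Its signal was 68.0, 72.2 and 64.3% on the *Sox7* (+/-) ES arrays and 1003, 1037 and 132% on the *Sox7* (+/-) XEN-like arrays. It was 103, 112 and 104% in *Sox7* (-/-) ES cells and 1194, 1098 and 954% in *Sox7* (-/-) XEN-like cells. All XEN-like arrays lay above all ES arrays, but replicate 3 of the *Sox7* (+/-) XEN-like cells was 7.71-fold below the mean of the other 2. The change with Dex was 7.58-fold in *Sox7* (+/-) cells (log2 2.92, SE 0.63, adjusted p = 0.0023) and 10.1-fold in *Sox7* (-/-) cells (log2 3.34, SE 0.63, adjusted p = 8.5e-04). Without replicate 3 the first was 15.0-fold (log2 3.91, SE 0.10, adjusted p = 2.9e-09). In the order of levels, *Sox7* (-/-) and *Sox7* (+/-) XEN-like cells overlapped at the top, *Sox7* (-/-) ES cells came next and *Sox7* (+/-) ES cells were lowest.

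*Stra6*, the receptor for Rbp4, was read at chromosome 9 (mm9 58001701 to 58001760, plus strand). The *Sox7* (+/-) ES arrays gave 142, 137 and 158% and the *Sox7* (+/-) XEN-like arrays 370, 350 and 383%. The *Sox7* (-/-) ES arrays gave 60.8, 69.7 and 54.2% and the *Sox7* (-/-) XEN-like arrays 265, 264 and 287%. No 2 groups overlapped, and the order was *Sox7* (+/-) XEN-like, *Sox7* (-/-) XEN-like, *Sox7* (+/-) ES, *Sox7* (-/-) ES. *Stra6* rose 2.53-fold with Dex in *Sox7* (+/-) cells (log2 1.34, SE 0.10, adjusted p = 1.1e-06) and 4.44-fold in *Sox7* (-/-) cells (log2 2.15, SE 0.10, adjusted p = 2.3e-08). Replicate 3 of the *Sox7* (+/-) XEN-like cells was the highest of its group here. The first change was under 2-fold when the arrays were scaled by spike-in controls (log2 0.85, adjusted p = 1.6e-04). It was also under 2-fold in the deposited table, neither background-subtracted nor scaled (log2 0.79, adjusted p = 7.5e-05). These settings shifted the median of all probes in this comparison by -0.49 and -0.39 on the log2 scale.

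*Crabp1* and *Crabp2* encode small cytoplasmic proteins that hold retinoic acid, Crabp2 being known to pass it to nuclear receptors. *Crabp1* (chromosome 9, mm9 54616192 to 54616251, plus strand) gave 42.5, 46.4 and 43.0% in *Sox7* (+/-) ES cells and 58.1, 60.3 and 54.3% in *Sox7* (-/-) ES cells. In *Sox7* (+/-) XEN-like cells it gave 3.08, 2.48 and 18.2%, well above background on replicate 3 only. In *Sox7* (-/-) XEN-like cells its readings of 2.15, 1.53 and 1.45% were not well above background. Thus the 6 ES arrays were all above the 6 XEN-like arrays. The fall in *Sox7* (+/-) cells had an adjusted p of 0.0011, with a fitted log2 change of -3.08 (SE 0.59) that includes 2 readings below background, and without replicate 3, where no array of the group measured it, at least 4.25-fold (adjusted p = 5.3e-08). In *Sox7* (-/-) cells the fall was at least 7.59-fold (adjusted p = 2.7e-05). Such a bound compares the mean of the brighter group with, on each array of the dimmer group, the higher of its own reading and the lowest signal well above background.

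*Crabp2* (chromosome 3, mm9 87757207 to 87757266, plus strand) was measured on every array. It gave 220, 204 and 220% in *Sox7* (+/-) ES cells and 129, 152 and 137% in *Sox7* (-/-) ES cells. With Dex it gave 45.6, 46.8 and 43.3% in *Sox7* (+/-) cells and 60.5, 55.6 and 48.5% in *Sox7* (-/-) cells. The 4 groups did not overlap, and the 2 groups of XEN-like cells were the closest neighbours. The fall was 4.75-fold in *Sox7* (+/-) cells (log2 -2.25, SE 0.09, adjusted p = 1.6e-08) and 2.55-fold in *Sox7* (-/-) cells (log2 -1.35, SE 0.09, adjusted p = 5.5e-07). Replicate 3 of the *Sox7* (+/-) XEN-like cells was close to the others of its group.

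The 3 Aldh1a enzymes oxidise retinaldehyde to retinoic acid, and their transcripts did not move together. *Aldh1a1* (chromosome 19, mm9 20717764 to 20717823, plus strand) gave 13.9, 13.1 and 11.7% in *Sox7* (+/-) ES cells and 257, 253 and 47.9% in *Sox7* (+/-) XEN-like cells. It gave 21.6, 26.2 and 19.8% in *Sox7* (-/-) ES cells and 126, 130 and 111% in *Sox7* (-/-) XEN-like cells. All XEN-like arrays lay above all ES arrays, and replicate 3 of the *Sox7* (+/-) XEN-like cells fell below the 3 *Sox7* (-/-) XEN-like arrays while the other 2 lay above them. *Aldh1a1* rose 11.4-fold in *Sox7* (+/-) cells (log2 3.51, SE 0.52, adjusted p = 2.0e-04), 19.8-fold without replicate 3 (log2 4.31, SE 0.12, adjusted p = 6.1e-09), and 5.47-fold in *Sox7* (-/-) cells (log2 2.45, SE 0.52, adjusted p = 0.0019).

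*Aldh1a2*, the main synthesising enzyme of the early embryo, was read at chromosome 9 (mm9 71143931 to 71143990, plus strand). The ES arrays gave 39.1, 37.4 and 49.7% in *Sox7* (+/-) cells and 62.0, 66.8 and 57.1% in *Sox7* (-/-) cells. In XEN-like cells it was not well above background on any of the 6 arrays, with readings of 2.05, 2.69 and 3.84% in *Sox7* (+/-) and 2.63, 5.01 and 3.78% in *Sox7* (-/-) cells. The fall was at least 3.82-fold in *Sox7* (+/-) cells (adjusted p = 4.7e-07) and at least 8.16-fold in *Sox7* (-/-) cells (adjusted p = 2.7e-07). *Aldh1a3* (chromosome 7, mm9 73535785 to 73535844, minus strand) stayed near background, well above it on 2, 1, 3 and 1 of the 3 arrays of *Sox7* (+/-) ES, *Sox7* (+/-) XEN-like, *Sox7* (-/-) ES and *Sox7* (-/-) XEN-like cells. Its readings ran from 2.82 to 14.7% over all 12 arrays, and with the 75th percentile scaling and all arrays no comparison called it. Its fall with Dex in *Sox7* (+/-) cells was called without *Sox7* (+/-) XEN-like replicate 1 (log2 -1.55, adjusted p = 0.0094) and with spike-in scaling (log2 -1.46, adjusted p = 0.036).

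*Cyp26a1*, the cytochrome P450 that clears retinoic acid, had the largest rise of the 9 genes. It was read at chromosome 19 (mm9 37775566 to 37775625, plus strand). It gave 237, 216 and 200% in *Sox7* (+/-) ES cells and 5106, 5185 and 2745% in *Sox7* (+/-) XEN-like cells. It gave 93.3, 95.5 and 86.7% in *Sox7* (-/-) ES cells and 4664, 4140 and 4221% in *Sox7* (-/-) XEN-like cells. The ES groups stood apart from each other and far below the XEN-like arrays, among which replicate 3 of the *Sox7* (+/-) cells was the lowest. The rise was 19.2-fold in *Sox7* (+/-) cells (log2 4.26, SE 0.21, adjusted p = 4.5e-08), 23.7-fold without replicate 3 (log2 4.57, SE 0.09), and 47.2-fold in *Sox7* (-/-) cells (log2 5.56, SE 0.21, adjusted p = 5.1e-09).

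*Rarb*, a retinoic acid receptor, was read by its brightest probe at chromosome 14 (mm9 17263367 to 17263426, minus strand). That probe gave 24.7, 22.1 and 25.9% in *Sox7* (+/-) ES cells and 54.0, 47.5 and 34.3% in *Sox7* (+/-) XEN-like cells. It gave 21.0, 14.9 and 14.8% in *Sox7* (-/-) ES cells and 50.0, 64.0 and 51.3% in *Sox7* (-/-) XEN-like cells. All XEN-like arrays lay above all ES arrays, while the 2 groups of XEN-like cells overlapped. The difference with Dex was 1.84-fold in *Sox7* (+/-) cells (log2 0.88, SE 0.19, adjusted p = 0.0023), under the 2-fold threshold, and 2.09-fold without replicate 3 (adjusted p = 4.6e-04), which passed it. In *Sox7* (-/-) cells the rise was 3.29-fold (log2 1.72, SE 0.19, adjusted p = 1.8e-05). The second probe, in the same transcript, exceeded background clearly in the *Sox7* (-/-) XEN-like group alone (11.0, 11.6 and 11.4%), a rise of at least 1.24-fold. This probe passed the filter through that group alone, which favours a rise, so its rise is not separate support. The third, from another transcript record, was not well above background on any array.

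**Figure D2:**
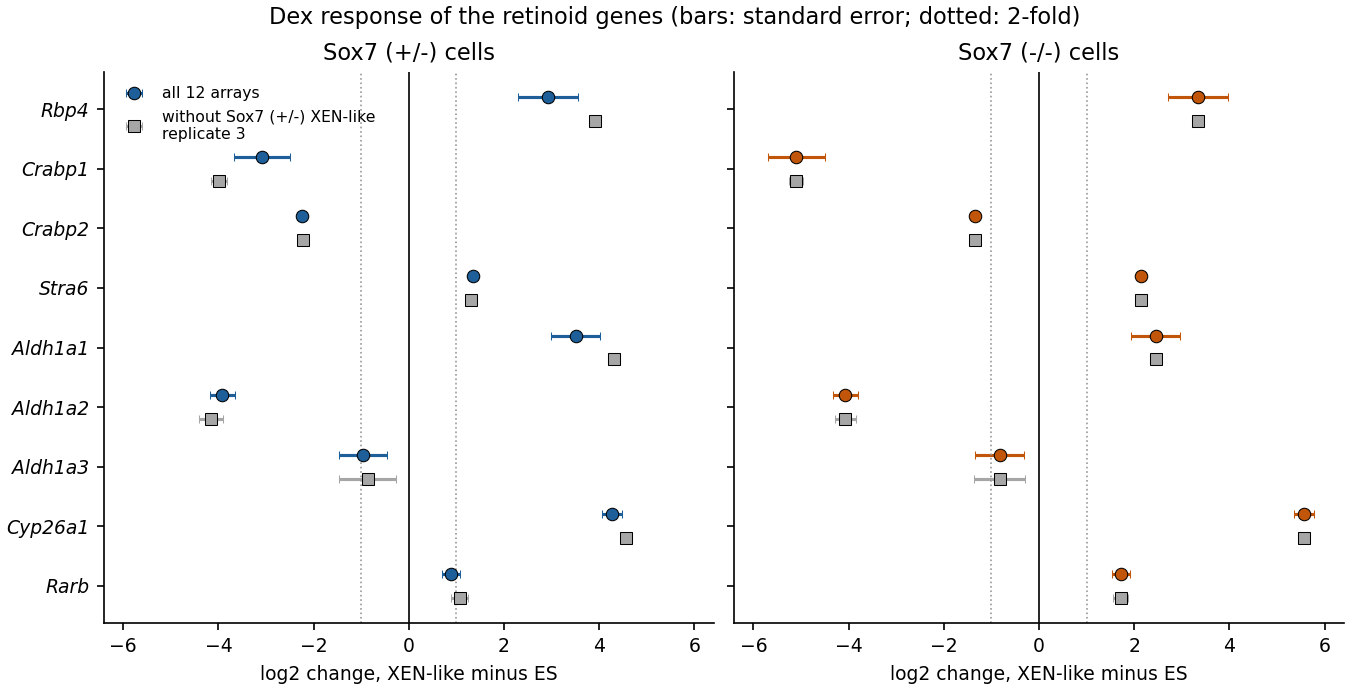
Log2 change with Dex (XEN-like minus ES) of the 9 genes in each genotype, with the standard error of the fit. Circles are from all 12 arrays and squares from 11, without *Sox7* (+/-) XEN-like replicate 3; dotted lines mark 2-fold. *Rbp4*, *Crabp1* and *Aldh1a1* moved most when that array was left out, from 2.92 to 3.91, from -3.08 to -3.99 and from 3.51 to 4.31, and values for readings below background are fitted values, not bounds.

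On replicate 3 of the *Sox7* (+/-) XEN-like cells the shortfall differed between genes. Measured as the share of the log2 change seen on the other 2 replicates, it had reached 24.5% for *Rbp4*, 44.0% for *Aldh1a1* and 80.1% for *Cyp26a1*. *Crabp2* and *Stra6* stood at 104 and 107% of theirs. Over all genes called as risen in *Sox7* (+/-) cells the median share was 98.6%, and over those called as fallen it was 94.8%. These calls were made with replicate 3 in the fit, which favours genes that it did not hold back. *Rarb*, not called in that fit, was at 34.3% on it against 54.0 and 47.5% and has no share here. Among the genes called, the array was thus not uniformly less changed. *Rbp4* and *Aldh1a1* were among the 225 genes that lay over 2-fold below both other arrays on it. No such share is given for *Crabp1*, which was measured on replicate 3 only.

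**Figure D3:**
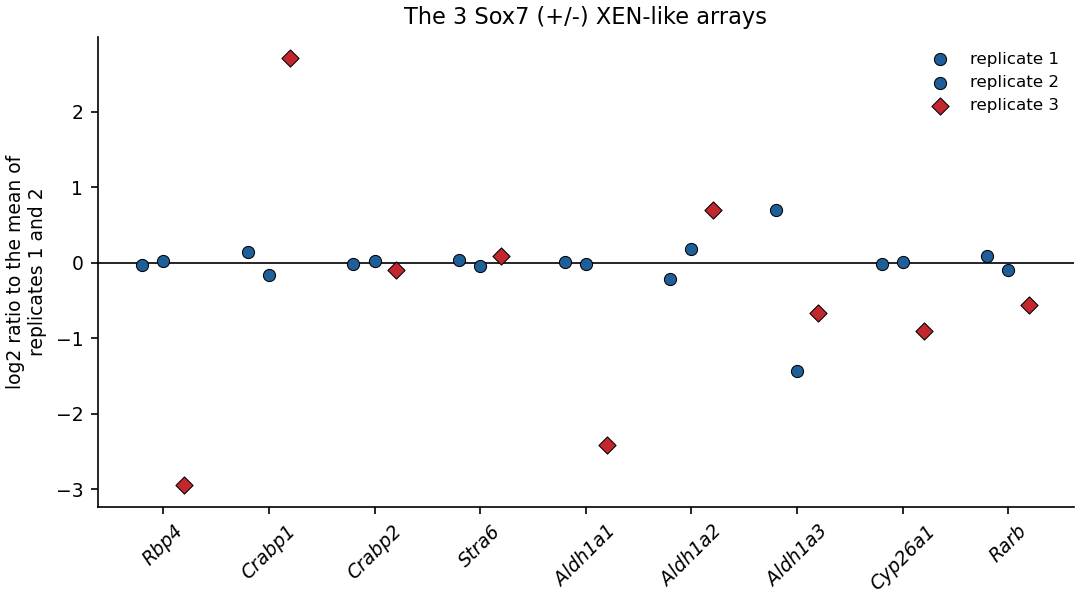
Log2 ratio of each *Sox7* (+/-) XEN-like array to the mean of replicates 1 and 2, for each of the 9 genes. Circles are replicates 1 and 2 and diamonds replicate 3, which lay 7.71-fold low for *Rbp4* and within the spread of the others for *Aldh1a3*, a gene near background. Its high point for *Crabp1* is set against 2 readings below background.

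Before Dex, transcripts of the Rbp4 receptor and the degrading enzyme were lower in *Sox7* (-/-) than in *Sox7* (+/-) ES cells. *Stra6* was 2.37-fold lower (log2 -1.24, SE 0.10, adjusted p = 9.3e-06) and *Cyp26a1* 2.37-fold lower (log2 -1.24, SE 0.21, adjusted p = 9.8e-04). These were 2 of the 9 genes, where 6.57% of all genes tested were lower, and none of the 9 was called higher, where 1.96% were. *Crabp2* (log2 -0.62, SE 0.09, adjusted p = 5.7e-04) and *Rarb* (log2 -0.54, SE 0.19, adjusted p = 0.041) passed the p threshold at under 2-fold. *Rbp4* was 1.56-fold, *Aldh1a1* 1.74-fold, *Crabp1* 1.31-fold and *Aldh1a2* 1.48-fold higher in *Sox7* (-/-) ES cells without overlap between the groups. In that order their adjusted p was 0.43, 0.24, 0.62 and 0.10 in the fit of all arrays, whose spread includes the array that stood apart. Without that array it was 2.9e-04, 3.5e-04, 0.048 and 0.055, still under 2-fold. The sign for *Crabp1* turned with the slide as a block. The share of all genes without such overlap was not counted. The 2 ES groups lay on different slides. With the slide as a block, which rests on the *Sox7* (-/-) XEN-like arrays alone, *Stra6* was at -1.19 (adjusted p = 0.0044) and *Cyp26a1* at -1.40 (adjusted p = 0.048) on the log2 scale. In the same comparison 3 of 6 pluripotency markers were higher in *Sox7* (-/-) cells, with a summed signal of 45086 to 48409% against 21316 to 22491%, and 4 of the 8 visceral and 3 of the 8 parietal endoderm markers tested were lower. The part of these cell type differences in the result was not tested.

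In XEN-like cells no member of the set was called between the genotypes, with 4.13% of all genes called higher and 3.39% called lower in the null line. By limma 3 of the 9 had an unadjusted p under 0.05, a share that was not counted over all genes. The adjusted threshold was passed by 2 at under 2-fold, as 35.3% of all genes passed it at any size. They were *Stra6* (log2 -0.43, SE 0.10, adjusted p = 0.0080) and *Crabp2* (log2 0.27, SE 0.09, adjusted p = 0.046). Without replicate 3 of the *Sox7* (+/-) cells their adjusted p was 0.018 and 0.094, so *Crabp2* no longer passed. The sign for *Stra6* turned in the table as deposited, with no background subtraction or scaling (0.0090). *Cyp26a1* differed by 0.06 on the log2 scale, with a 95% confidence interval of -0.41 to 0.52. *Rbp4* differed by 1.06 (-0.34 to 2.46, adjusted p = 0.22), and without replicate 3 of the *Sox7* (+/-) cells by 0.08 (adjusted p = 0.56). *Aldh1a1* differed by -0.26 (-1.42 to 0.90, adjusted p = 0.73). Without replicate 3 it was 2.09-fold lower in *Sox7* (-/-) cells (log2 -1.06, SE 0.12, adjusted p = 2.4e-04) and was called. *Crabp1* differed by -1.62 (-2.94 to -0.31, adjusted p = 0.057), a value that rests on replicate 3, the only XEN-like array on which it was measured. Without that array it was -0.72 (adjusted p = 0.0089), on readings below background, and it passed both thresholds without replicate 1 (adjusted p = 0.039) or replicate 2 (-2.16, adjusted p = 0.021) of the *Sox7* (+/-) cells and with an intensity trend (adjusted p = 0.039). In the deposited table, where the median of all probes shifted by 0.34, *Rbp4* was called at 1.42 (adjusted p = 2.5e-04). On the slide that held both genotypes the values for *Rbp4*, *Aldh1a1* and *Cyp26a1* were 0.99, -0.28 and 0.0025, none of them called.

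The test of the difference itself asked whether the response to Dex differed between the genotypes. *Cyp26a1* rose 2.46-fold more in *Sox7* (-/-) cells (log2 1.30, SE 0.29, adjusted p = 0.0091). The 2 differences that make up this value were -1.24 in ES cells and 0.06 in XEN-like cells. It was the only call, where 6.99% of all genes had a higher and 3.14% a lower response. *Crabp2* fell less in *Sox7* (-/-) cells (0.90, SE 0.13, adjusted p = 9.2e-04), and *Stra6* (0.81, SE 0.14, adjusted p = 0.0022) and *Rarb* (0.84, SE 0.27, adjusted p = 0.042) rose more, each by under 2-fold. An adjusted p under 0.05 alone was reached by 28.8% of all genes. With spike-in scaling, which shifted the median of all probes by 0.40, they stood at 1.30, 1.21 and 1.24 and were called, and *Rarb* also passed 2-fold without *Sox7* (-/-) ES replicate 1 (adjusted p = 0.021). Without replicate 3 of the *Sox7* (+/-) XEN-like cells *Cyp26a1* stood at 0.997, just under the 2-fold threshold (adjusted p = 2.4e-04), and *Aldh1a1* was called, with a 3.63-fold smaller rise in *Sox7* (-/-) cells (log2 -1.86, SE 0.17, adjusted p = 5.3e-05). *Crabp1* was also called without it, at -1.11 (adjusted p = 0.0050), on readings below background in all remaining XEN-like arrays, and without replicate 2 at -2.54 (adjusted p = 0.039). *Rbp4* turned from 0.42 (adjusted p = 0.76) to -0.56 (adjusted p = 0.0099). Of the 8 visceral endoderm markers tested, 2 rose and 3 fell with Dex in *Sox7* (+/-) cells and 6 rose in *Sox7* (-/-) cells, and 7 had a higher response in the latter. Their part in these differences was not tested.

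**Figure D4:**
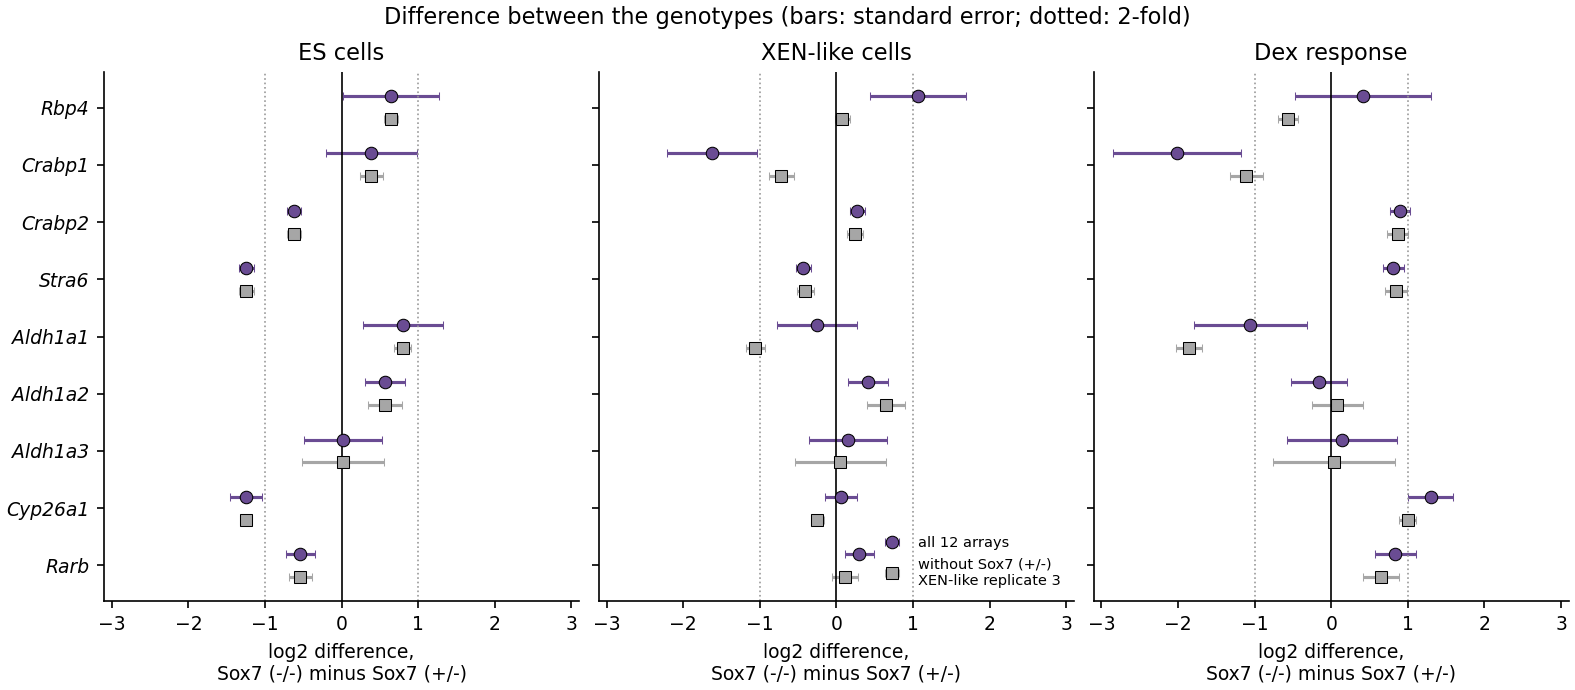
Log2 difference between the genotypes, *Sox7* (-/-) minus *Sox7* (+/-), in ES cells, in XEN-like cells and in the response to Dex, with the standard error of the fit. Circles are from all 12 arrays and squares from 11, without *Sox7* (+/-) XEN-like replicate 3; dotted lines mark 2-fold. *Stra6* and *Cyp26a1* stand at -1.24 in ES cells with and without that array, while *Aldh1a1* in XEN-like cells moves from -0.26 to -1.06.

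The genes whose log2 signal followed each of these most closely over the 12 arrays were found by Pearson's r, which mostly reflects the contrast of ES with XEN-like cells that all 12 points share. *Cyp26a1* was followed most closely by the basement membrane collagen genes *Col4a1* and *Col4a2* (both r = 0.999). *Rbp4* was followed by *Atoh1* and *Arl1* (both 0.994), *Crabp1* by *Zmat4* (0.991) and *Acot7* (0.990), *Crabp2* by *Emp3* (0.995) and *Tmem79* (0.994), and *Stra6* by *Timp2* (0.995) and *Cryab* (0.994). *Aldh1a1* was followed by *Alpk3* (0.993) and *Pitx1* (0.991), *Aldh1a2* by *Txlng* (0.996) and *Ncs1* (0.995), and *Rarb* by *Srebf2* and *Mbd2* (both 0.984). Between members, *Rbp4* with *Aldh1a1* stood at 0.961 and *Rbp4* with *Stra6* at 0.678.

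The remaining path was read from 5 lists of 58 further genes, 57 of them on the array and 44 passing the filter. With Dex, 6 rose and 12 fell in *Sox7* (+/-) cells, and 10 rose and 11 fell in *Sox7* (-/-) cells, beside 11.0 and 14.0% of all genes in the former and 14.5 and 14.1% in the latter, with medians of -0.07 and 0.05 on the log2 scale. Without replicate 3 the first counts were 7 and 11. The genes named below are those that moved most, those of lists with few calls, and some others chosen after their values were seen.

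Among the 8 measured carrier, uptake and storage genes, 2 rose and 3 fell in *Sox7* (+/-) cells and 4 rose and 2 fell in *Sox7* (-/-) cells. *Ttr*, transthyretin, which carries Rbp4 in the blood, rose in *Sox7* (+/-) cells (log2 2.54, SE 0.37, adjusted p = 1.7e-04) and at least 66.9-fold in *Sox7* (-/-) cells (adjusted p = 6.0e-08), where it was not well above background before Dex. *Lrp2*, megalin, an endocytic receptor for Rbp4, rose by 1.54 and 3.34 on the log2 scale, the first 1.15 without replicate 3. *Cubn* and *Amn*, which form the endocytic receptor cubam, fell in *Sox7* (+/-) cells (-1.85 and -2.08) and rose in *Sox7* (-/-) cells (1.82 and 1.53), and these responses differed by 3.67 (adjusted p = 8.0e-05) and 3.61 (adjusted p = 3.1e-07). *Rbp7*, a cellular retinol-binding protein, fell in both genotypes, by at least 7.19-fold and at least 3.73-fold. *Fabp5*, a fatty acid-binding protein that also binds retinoic acid, fell in *Sox7* (-/-) cells (-1.63) and stood at -0.41 in *Sox7* (+/-) cells (adjusted p = 0.11). *Lrat*, which stores retinol as esters, did not pass the filter.

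Among 13 measured oxidoreductases of retinol and retinaldehyde, 1 rose and 1 fell in *Sox7* (+/-) cells and 3 rose and 1 fell in *Sox7* (-/-) cells. *Dhrs3*, which reduces retinaldehyde back to retinol, rose by 1.14 in *Sox7* (+/-) cells (SE 0.29, adjusted p = 0.0067), and by 1.59 without replicate 3. In *Sox7* (-/-) cells it rose by 3.77 (adjusted p = 1.3e-06). *Rdh10*, the main retinol dehydrogenase of the embryo, stood at -0.32 in *Sox7* (+/-) cells (adjusted p = 0.054) and rose by 1.90 in *Sox7* (-/-) cells (adjusted p = 5.0e-07), and the responses differed by 2.23 (adjusted p = 2.1e-05). *Rdh1*, dim in every group, fell at least 1.25-fold and rose at least 1.20-fold, and *Adh5* fell in *Sox7* (-/-) cells (-1.21). Of the hydroxylases, *Cyp2s1* fell in both genotypes (-1.39 and -2.08) and *Cyp26b1*, a relative of *Cyp26a1*, was called in neither.

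Of 12 measured receptors and cofactors, 1 rose and 2 fell in each genotype. *Rarg*, which encodes another retinoic acid receptor, fell from 1791 to 1957% in *Sox7* (+/-) ES cells to 37.6 to 53.1% in XEN-like cells (log2 -5.34, adjusted p = 3.6e-10), and its log2 change in *Sox7* (-/-) cells was -6.13. *Rara* stood at -0.43 and -0.74. *Nrip1*, a corepressor that retinoic acid is known to induce, rose by 1.62 and 2.18. *Ncoa3*, a coactivator, fell by 1.11 and 1.66, the first under 2-fold without replicate 3 (-0.95).

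Of 9 measured genes known to respond to retinoic acid, 2 rose and 5 fell in each genotype, so that they did not move one way. *Meis1*, a homeobox gene, rose by 2.01 and 2.78, and *Rarres1* at least 3.49-fold in *Sox7* (-/-) cells. *Rarres1* was also called in *Sox7* (+/-) cells, where only 1 XEN-like array of 3 and no ES array had it well above background, so no fold is given. *Stra8*, a gene of meiotic entry, fell at least 5.90-fold in *Sox7* (+/-) cells and by 5.94 on the log2 scale in *Sox7* (-/-) cells. *Cdx1* fell at least 10.2-fold and at least 22.2-fold, *Gbx2* at least 6.26-fold and at least 28.2-fold, *Tgm2* by 2.60 and 1.15 on the log2 scale, and *Foxa1* at least 3.78-fold in *Sox7* (-/-) cells. *Foxa1* was also called lower in *Sox7* (+/-) cells, where 1 XEN-like array of 3, replicate 3, had it well above background, with a fitted log2 change of -2.17, and -2.93 without that array.

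Between the genotypes, 2 of the 44 further genes were higher and 11 lower in *Sox7* (-/-) ES cells, beside 1.96 and 6.57% of all genes. The lower ones included *Lrp2* (-2.31, adjusted p = 1.7e-04), *Dhrs3* (-1.67, adjusted p = 0.0014), *Tgm2* (-1.22), *Meis1* (-1.17), *Rdh10* (-1.05), *Ttr* by at least 3.70-fold and *Cyp26b1* by at least 1.78-fold. They also include *Rarres1*, which was not well above background in either ES group. The 2 higher genes were *Stra8* (3.31, adjusted p = 8.6e-07) and *Gbx2* (1.66, adjusted p = 2.4e-04). In XEN-like cells 8 were higher and 3 lower, beside 4.13 and 3.39% of all genes, and 8 and 1 without replicate 3, when *Fabp5* and *Foxa1* were no longer called. *Amn* (3.19), *Cubn* (2.56) and *Ttr* (1.63) were the most raised, and *Cyp26b1*, which no *Sox7* (-/-) array measured above background, was at least 3.45-fold lower (adjusted p = 2.4e-06). In these cells 6 of the 8 visceral endoderm markers tested were also higher in *Sox7* (-/-) cells, among them *Ttr*, *Cubn* and *Amn*, which both lists hold, with a summed signal of 43617 to 46622% against 20134 to 23190%. The part of that difference in these results was not tested.

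**Figure D5:**
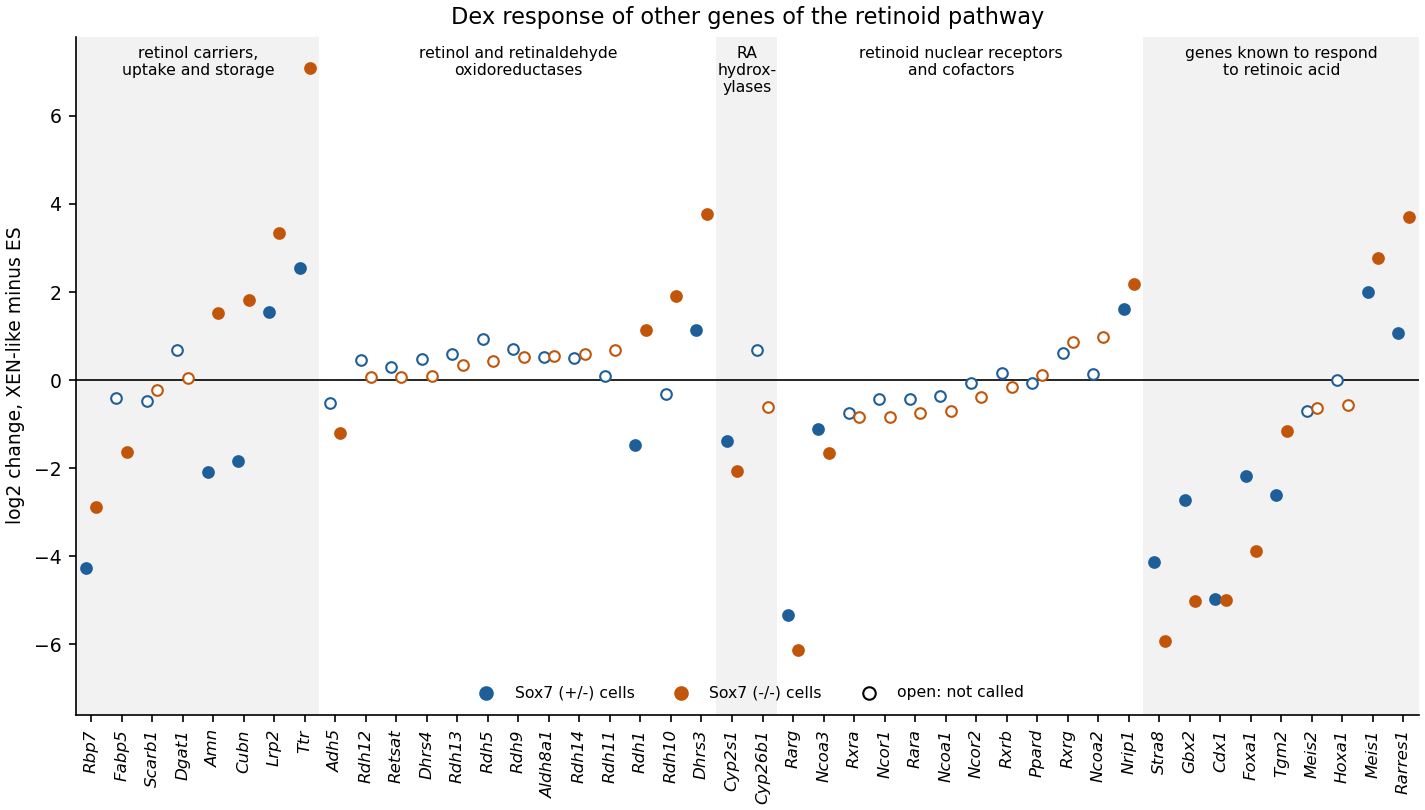
Log2 change with Dex (XEN-like minus ES) of the 44 further genes of the retinoid path that passed the filter, in *Sox7* (+/-) and *Sox7* (-/-) cells, grouped by list and ordered by the change in *Sox7* (-/-) cells. Filled points were called (adjusted p under 0.05 and over 2-fold). Values for genes below background in a group are fitted values, not bounds. *Cubn* and *Amn* stand on opposite sides of 0 in the 2 genotypes, and *Rarg* stands at -5.34 and -6.13.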

How the data were processed

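RNA of 12 samples in 4 groups of 3 was hybridised to 1-colour mouse 8x60K arrays. The authors scanned them and deposited background-subtracted, detrended spot intensity values from Agilent Feature Extraction 10.7.3.1, the version named in the submitters' processing notes. A deposited table of the whole series held the mean signal of each spot (largest difference 0.498%). It had neither background subtraction nor scaling between arrays, and was used as an alternative. Probe positions are on mm9, per the file headers, and no annotation of that build was used.

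Each intensity was divided by its array's 75th percentile (252 to 416 units) and log2 was taken. Non-uniform spots were left out, and the log2 values of a probe's spots were averaged. Of 55681 probes, 25938 passed the filter, which asked that every array of some group, 3 in all, read the probe well above background. These entered limma 3.58.1 in R 4.3.3, with a mean per group over all 12 arrays and Benjamini-Hochberg correction over all probes, in 5 comparisons. The fit and its calls, not the earlier steps, were tested on simulated log2 values. A change was called at an adjusted p under 0.05 and over 2-fold. The brightest probe stood for a gene, with other probes beside it. No spot was saturated, 41.7 to 52.3% of spots per array were well above background, and the number of arrays limits the precision.

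The 9 genes and all lists were chosen with earlier results of these data known. Of the further lists, 2 genes are not reported here and entered no count of a list. Named from the further lists were up to 3 genes that rose and 3 that fell most per comparison, the called genes of lists with 5 or fewer calls, and others chosen after their values were seen. For likeness, the 2 gene symbols with the highest Pearson's r were named. The sources used here do not say whether replicates were separate cultures, and p-values may then measure technical spread. The label of the source material gave replicate 1 for all 3 *Sox7* (+/-) ES arrays while their titles gave 1 to 3, and the titles were used. Same-numbered arrays of different groups did not deviate together (correlations of -0.05 to 0.13), so the numbers did not pair them. Alternatives covered background correction, scaling, filter, variance model, arrays in the fit, slide or replicate number as a block, minimum fold, probe choice and leaving out each array. Array weights and the slide that held both genotypes alone were added after seeing the data.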

Additional observations from a re-analysis of the deposited data

Results flagged for a closer look

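The response to Dex differed between the genotypes, by limma's test of the difference itself over all probes, at an adjusted p under 0.05 for 4 of the 9 genes, as for 28.8% of all genes. Of the 4, *Cyp26a1* alone passed 2-fold as well. The difference, *Sox7* (-/-) minus *Sox7* (+/-) on the log2 scale, was 1.30 for *Cyp26a1* (adjusted p = 0.0091), 0.90 for *Crabp2* (adjusted p = 9.2e-04), 0.81 for *Stra6* (adjusted p = 0.0022) and 0.84 for *Rarb* (adjusted p = 0.042). Without *Sox7* (+/-) XEN-like replicate 3 they were 0.997, 0.87, 0.84 and 0.65, the last with an adjusted p of 0.057. For all 4 the ES groups did not overlap, with the *Sox7* (-/-) arrays lower, and this ES difference is itself a part of the difference tested. The ES groups of *Rbp4*, *Crabp1*, *Aldh1a1* and *Aldh1a2* did not overlap either, with the *Sox7* (-/-) arrays higher. The share of all genes without such overlap was not counted, so the lack of overlap does not set the 4 genes apart.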

How the results depend on the processing

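The number of the 9 genes called was 7 and 8 for the response to Dex in *Sox7* (+/-) and *Sox7* (-/-) cells, 2 between ES cells, 0 between XEN-like cells and 1 for the difference in response. Leaving out each array in turn gave 7 to 8, 8 to 8, 2 to 2, 0 to 1 and 1 to 2. For the difference in response these were not the same calls throughout. With all arrays 1 was higher and 0 lower. Without *Sox7* (+/-) XEN-like replicate 3, 0 were higher and 2 lower, and *Cyp26a1* was no longer called. Between XEN-like cells the deposited table and the intensity trend gave 1 and no minimum fold gave 2. Between ES cells normexp gave 1, with *Stra6* at -0.99, and no minimum fold gave 4. For the difference in response quantile normalization and the slide block gave 2, the deposited table and array weights 3, and spike-in scaling and no minimum fold 4. A block for the replicate number left the counts at 7, 8, 2, 0 and 1. In the response of *Sox7* (+/-) cells, 4 higher and 3 lower became 3 and 4 with spike-in scaling and 3 and 3 in the deposited table.

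Over the alternatives 28 single-gene values turned sign, none of them of a called difference, and the causes were not tested. *Aldh1a3*, near background, turned under normexp (0.029, -0.22 and -0.26 in the *Sox7* (+/-) response, in XEN-like cells and in the difference), under median and spike-in scaling in ES cells (-0.035 and -0.14) and under the slide block in the difference (-0.49). *Aldh1a2* turned in XEN-like cells under normexp (-0.18) and in the difference under spike-in scaling (0.24) and array weights (0.10). In XEN-like cells *Stra6* and *Aldh1a1* were at 0.0090 and 0.079 in the deposited table, and *Cyp26a1* at -0.0090 with median scaling and -0.22 with array weights. *Crabp1* was at -0.15 between ES cells with the slide block, and *Rbp4* at -0.42 in the difference with array weights. Some values turned when single arrays were left out, and the ranges given hold the values that turned and those that did not. In XEN-like cells they spanned -1.06 to 0.15 for *Aldh1a1*, -0.33 to 0.74 for *Aldh1a3* and -0.25 to 0.21 for *Cyp26a1*. In ES cells *Aldh1a3* spanned -0.33 to 0.24. In the difference the ranges were -0.56 to 0.92 for *Rbp4*, -0.38 to 0.085 for *Aldh1a2* and -0.35 to 0.72 for *Aldh1a3*. The lowest values of *Aldh1a1*, *Cyp26a1* and *Rbp4* were those without *Sox7* (+/-) XEN-like replicate 3. Requiring signal on all arrays left *Crabp1*, *Aldh1a2* and *Aldh1a3* without a value. The response to Dex then had 4 higher and 1 lower in *Sox7* (+/-) cells and 5 higher and 1 lower in *Sox7* (-/-) cells.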
